A study of Mus musculus with 28 samples.

Results

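Foxa1, Foxa2, Foxa3, Hnf4a, Hnf4g, Gata4 and Gata6 are transcription factor genes that pattern endoderm and keep columnar epithelium in its differentiated state. Gata3, of the same family as Gata4 and Gata6, acts in stratified epithelium and urothelium. These genes were followed here in mouse tissues with and without p63, the regulator of stratified epithelium. The genes were taken by name from 3 families, and each was read from the probe set that carries its symbol and has the highest mean over all arrays. All 8 passed the filter on low values, which left them as 8 of 13613 genes tested. The question put to them was which regulators of columnar epithelium are higher where p63 is lost.

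RNA from whole fetal tissue of p63 KO and WT mice, all of the Balb/c strain, was labelled with biotin and hybridised to Affymetrix mouse arrays, with 1 array a sample. The 28 arrays form 14 groups of 2: KO and WT proximal stomach, KO and WT distal stomach, KO and WT small intestine and KO and WT large intestine, all at E18, and KO and WT bladder at E15, E18 and E19. In the mouse the proximal stomach, or forestomach, is lined by stratified squamous epithelium, the distal stomach by glands, and the bladder by layered urothelium. The p63 allele, the line of dissection, the number of embryos behind an array and whether embryos were pooled were not stated in the sources used here. Nothing shows that the arrays of a group came from separate animals, so every p-value below measures the spread between these samples. In such bulk RNA, fewer cells of a type and less RNA per cell cannot be told apart.

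FOXA proteins are winged-helix pioneer factors that open chromatin in foregut endoderm and its derivatives, where Foxa2 is needed for the foregut to form. HNF4 proteins are nuclear receptors that drive genes of absorption and lipid handling in liver and gut, with Hnf4a active along the whole glandular gut and Hnf4g mainly in intestine. Among the zinc-finger GATA factors, Gata4 and Gata6 act in endoderm, heart and visceral mesenchyme, and Gata4 marks the columnar side of the boundary with the squamous forestomach. Gata3 acts in T cells, skin and other stratified epithelia and in urothelium.

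RefSeq promoter windows, reaching from 250 bases before to 50 bases after a transcription start on build GRCm38.p6, were at hand for 5 of the 8 genes. The 4 windows below belong to the genes with the largest KO minus WT differences in proximal stomach; they are shown on the strand of the gene, 5′ to 3′, with the core GATA motif AGATAA in capitals where it occurs.
Foxa2 (chr2:148045415-148045714, minus strand): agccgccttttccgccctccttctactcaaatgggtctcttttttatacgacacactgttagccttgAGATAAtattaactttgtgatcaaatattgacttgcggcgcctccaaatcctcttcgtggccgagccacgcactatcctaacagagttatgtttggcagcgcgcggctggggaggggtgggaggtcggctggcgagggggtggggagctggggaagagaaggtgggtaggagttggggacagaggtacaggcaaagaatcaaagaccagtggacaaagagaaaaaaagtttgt
Foxa3 (chr7:19023490-19023789, minus strand): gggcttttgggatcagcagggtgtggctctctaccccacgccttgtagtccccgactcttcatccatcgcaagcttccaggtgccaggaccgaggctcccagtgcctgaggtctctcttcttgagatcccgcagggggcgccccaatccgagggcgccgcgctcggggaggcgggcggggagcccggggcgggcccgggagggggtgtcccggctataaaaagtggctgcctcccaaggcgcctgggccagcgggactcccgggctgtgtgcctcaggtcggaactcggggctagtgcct
Hnf4a (chr2:163506607-163506906, plus strand): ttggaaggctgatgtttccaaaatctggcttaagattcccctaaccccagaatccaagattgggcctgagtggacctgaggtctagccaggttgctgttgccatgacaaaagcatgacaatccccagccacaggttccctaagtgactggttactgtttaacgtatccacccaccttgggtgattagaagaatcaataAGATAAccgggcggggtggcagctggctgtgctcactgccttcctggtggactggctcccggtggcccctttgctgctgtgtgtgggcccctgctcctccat
Gata3 (chr2:9878551-9878850, minus strand): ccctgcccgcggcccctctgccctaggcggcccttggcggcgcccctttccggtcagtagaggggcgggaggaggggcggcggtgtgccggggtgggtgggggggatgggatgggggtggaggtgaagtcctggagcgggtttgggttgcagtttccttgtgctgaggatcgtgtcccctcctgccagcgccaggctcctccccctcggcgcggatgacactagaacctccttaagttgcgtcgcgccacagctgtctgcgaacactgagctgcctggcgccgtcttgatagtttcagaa
Both strands were searched for AGATAA, for the FOX core TGTTTAC, for the HNF4 core CAAAGTCCA and for the p63 core, a pair of CATG half-sites with any 6 bases between them. Counted from the transcription start, the GATA core lay at -183 to -178 in the Foxa2 window and at -52 to -47 in the Hnf4a window, and it occurred in 11.2% of all 32851 windows. The only other match among the members' 8 windows was a FOX core on the opposite strand of the Foxa1 window, at -141 to -135, and 3.65% of all windows hold one. The HNF4 core, present in 0.475% of all windows, and the p63 core, present in 0.712%, were not found in these windows. Foxa2 has 3 such windows, and Hnf4a has 2 whose starts lie 40298 bases apart. For both genes the window shown is that with the GATA core, and their other windows held no match. A match describes the letters of a window and does not show that a factor binds there.

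The signal of the targeted gene, Trp63, was not lower in the arrays labelled KO in proximal stomach. All 4 Trp63 probe sets had higher means in the arrays labelled KO there, by 0.49 to 1.63. The brightest, 1418158_at, had 13.67 and 13.78 in KO against 13.16 and 13.31 in WT proximal stomach (difference 0.49, adjusted p = 0.357). Of the others, 1459581_at had means of 11.23 in KO and 9.60 in WT (adjusted p = 3.7e-04) and 1452027_a_at 9.66 in KO and 8.75 in WT (adjusted p = 0.00113), in a fit over all probe sets that passed the filter, while 1451876_a_at, at 7.55 in KO and 6.44 in WT, was filtered out. In bladder at E19 all 4 had lower means in KO, and 1418158_at had 9.44 and 9.62 in KO against 11.67 and 12.28 in WT (difference -2.44, adjusted p = 1.5e-04). In the fit over all probe sets that passed the filter, 1459581_at (-0.73, adjusted p = 0.104) and 1452027_a_at (-0.43, adjusted p = 0.126) did not pass at E19. In bladder at E15 and E18 the KO minus WT differences of 1418158_at were -0.61 and -1.10 and did not pass. Whether the probes lie inside the part of the gene that the KO allele lacks is not given in the sources used here, so KO and WT below are the names the labels give. Replicate arrays correlated at 0.980 to 0.994 over the 13613 genes tested, and no 2 arrays held identical values.

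**Figure D1:**
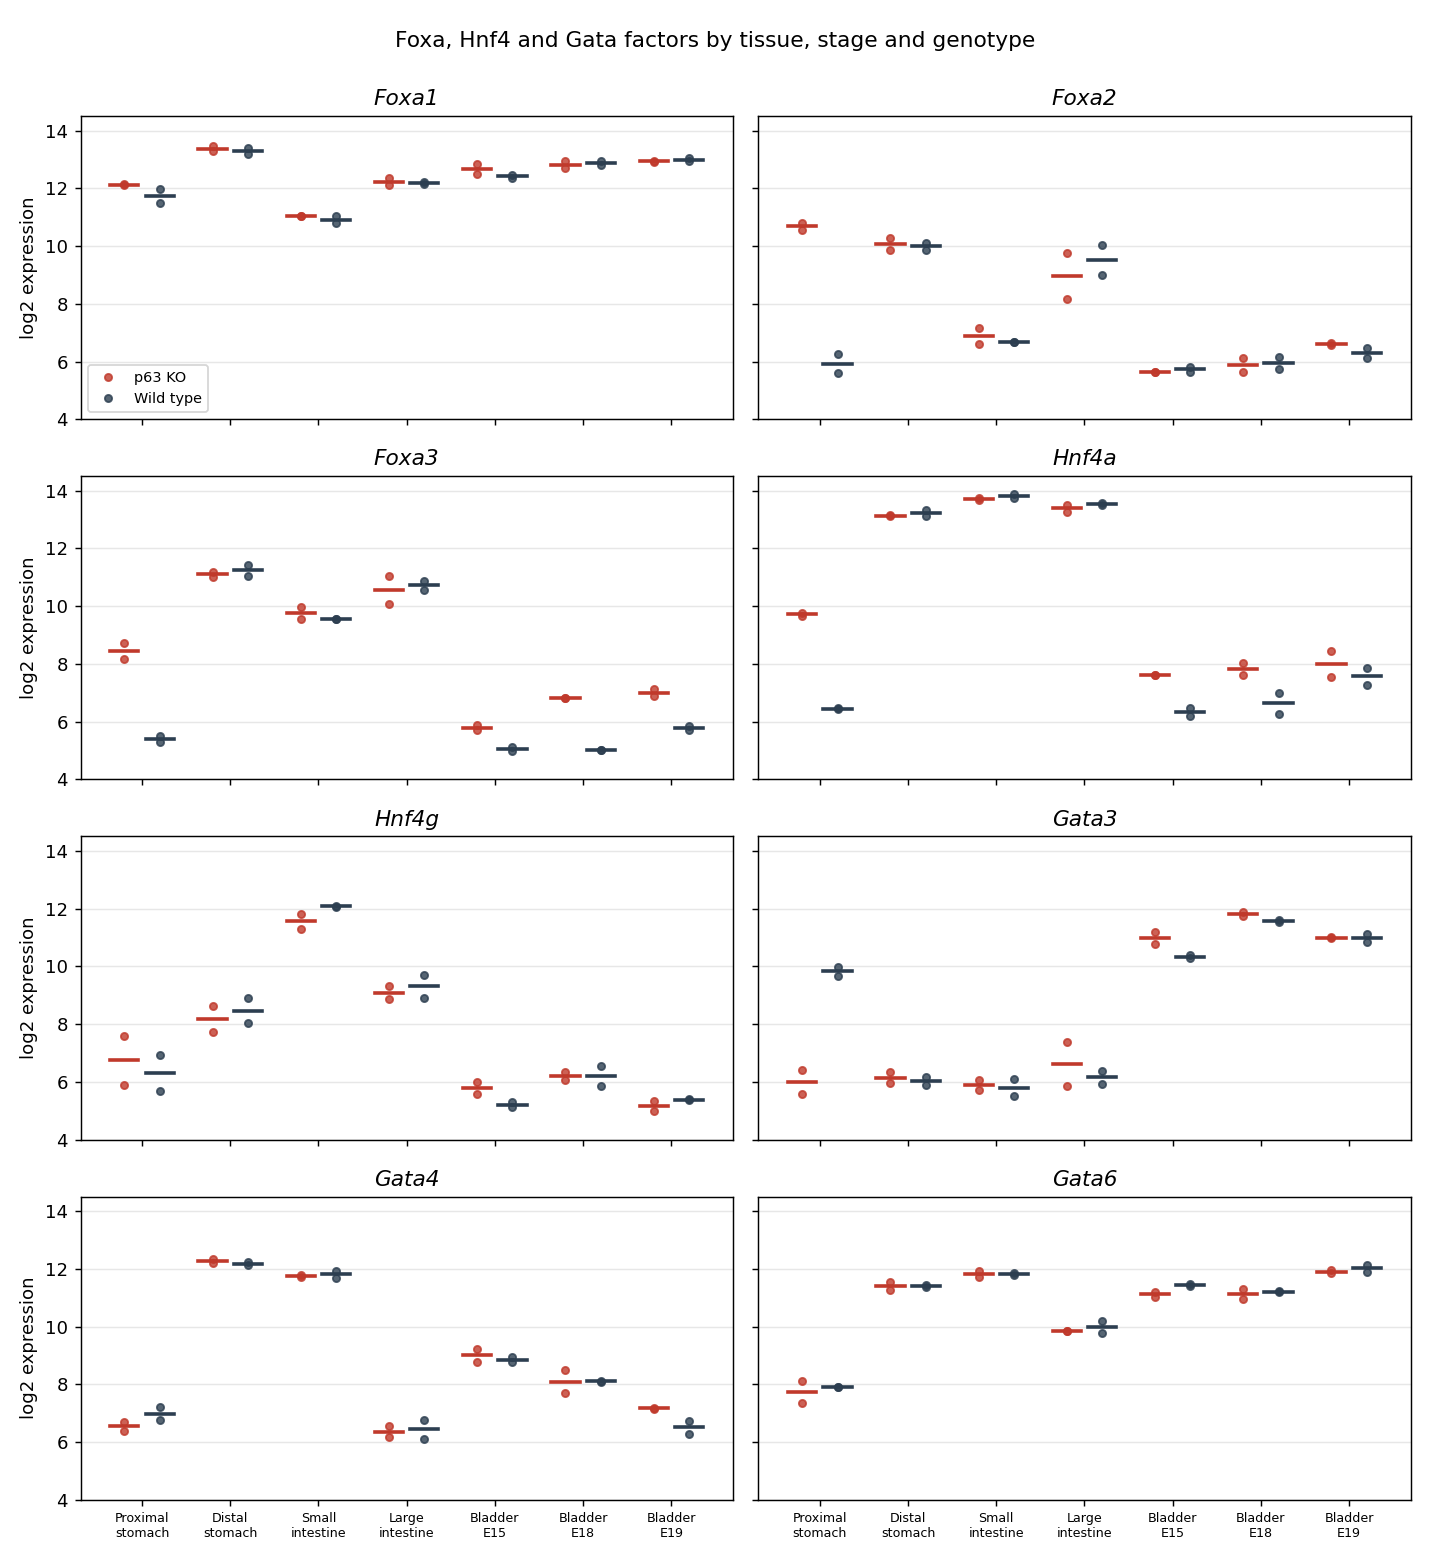
Each point is 1 array and each bar a group mean, in deposited log2 expression, with p63 KO (red) left of WT (dark) in every tissue and stage. Foxa2, Foxa3 and Hnf4a are high and Gata3 is low in KO proximal stomach, while the genotypes lie close together in distal stomach and intestine.

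In proximal stomach at E18, where Trp63 itself was not lower in the arrays labelled KO, Foxa2, Foxa3 and Hnf4a were between 8.25-fold and 27.2-fold higher in KO than in WT, Foxa1 was 1.32-fold higher and Gata3 was 14.1-fold lower. Hnf4g, Gata4 and Gata6 did not pass the test. Of the 8 members 4 were called higher and 1 lower at a Benjamini-Hochberg adjusted p under 0.05 in limma, in a comparison that called 32.7% of all genes tested. The call rate of all genes was 18.1% higher and 14.6% lower.

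Foxa2, the foregut pioneer factor, had 10.57 and 10.81 log2 units in the KO proximal stomachs, against 5.60 and 6.25 in the WT proximal stomachs. The genotypes did not overlap, which held for 63.8% of all genes tested in this comparison. Both WT arrays lay below their own array's median level while both KO arrays lay above it. The difference was 4.77 (SE 0.38, adjusted p = 2.9e-09). Foxa3, known in the mouse for roles in liver glucose metabolism and in airway goblet cells, had 8.74 and 8.18 in KO, against 5.31 and 5.52 in WT, again with WT below and KO above the array median. Its difference was 3.04 (SE 0.25, adjusted p = 5.1e-09). Foxa1, which shares many sites with Foxa2, was high in both genotypes, at 12.14 and 12.11 in KO and 11.49 and 11.97 in WT. The difference of 0.40 (SE 0.14, adjusted p = 0.032) is small next to those of its paralogues, and the WT arrays were spread more widely than the KO arrays. It fell to 0.16 (adjusted p = 0.492) without WT proximal stomach replicate 1, and it no longer passed without KO replicate 1 (adjusted p = 0.115) or KO replicate 2 (adjusted p = 0.1), or when only the proximal stomach arrays were fitted (adjusted p = 0.082). With the actin 3′ to 5′ difference of each array as a covariate the Foxa1 difference was 0.10 (adjusted p = 0.826); that measure of RNA quality ranged from 0.485 to 0.606 in the KO arrays and from 0.876 to 0.969 in the WT arrays, and Foxa2, Foxa3, Hnf4a and Gata3 passed with the same covariate.

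Hnf4a, the nuclear receptor of glandular gut epithelium, had 9.78 and 9.67 in the KO proximal stomachs, against 6.48 and 6.42 in the WT proximal stomachs. Arrays of a genotype lay close together and the genotypes far apart, with a difference of 3.27 (SE 0.24, adjusted p = 8.7e-10). These values come from probe set 1427001_s_at, the brightest of 4 for the gene. The other 3 read the same tissue differently. Probe set 1427000_at was higher in KO, at a mean of 5.39 against 4.38 in WT (difference 1.01, adjusted p = 4.8e-04), whereas 1421983_s_at (5.67 in KO, 5.73 in WT, adjusted p = 0.897) and 1450447_at (6.37 in KO, 6.30 in WT, adjusted p = 0.842) did not pass. All 4 probe sets were brightest in small intestine, and in WT distal stomach the last 3 reached 9.74, 9.08 and 7.11 in that order. Hnf4a has alternative promoters, and which transcripts each probe set reads was not examined here. Averaging all 4 probe sets gave a difference of 1.07, which still passed. Hnf4g, the intestinal paralogue, had 5.90 and 7.60 in KO, against 5.67 and 6.94 in WT. The ranges of the genotypes overlapped, and the difference of 0.44 (95% interval -0.53 to 1.42, adjusted p = 0.511) leaves changes in either direction possible.

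**Figure D2:**
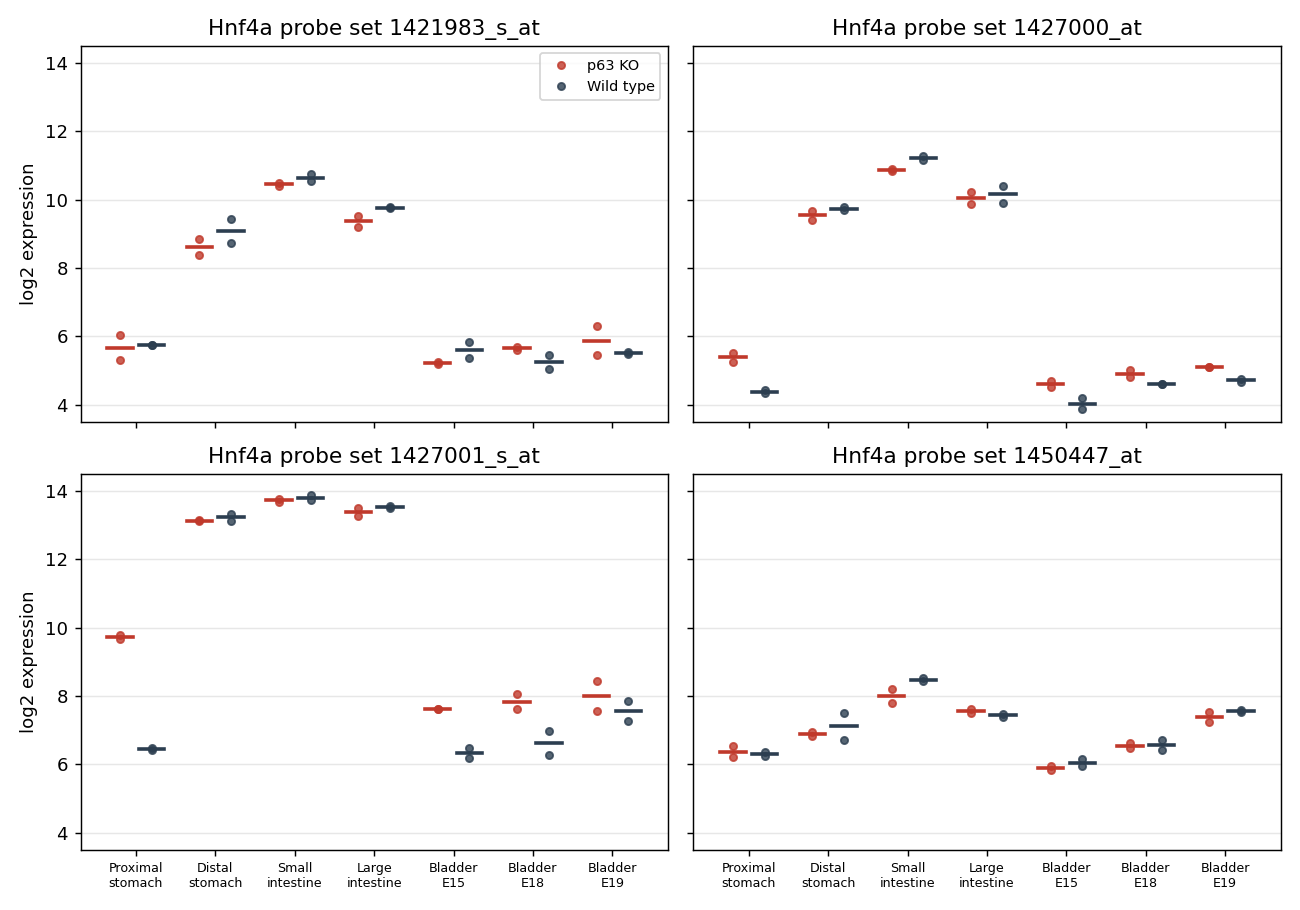
The 4 Hnf4a probe sets by tissue, stage and genotype in log2 expression, with points for arrays and bars for group means and p63 KO (red) left of WT (dark). Only 1427001_s_at and 1427000_at separate KO from WT proximal stomach by over 1 log2 unit, while small intestine is the brightest tissue in all 4.

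Gata3, the GATA factor of stratified epithelium and urothelium, went the other way. It had 5.58 and 6.42 in the KO proximal stomachs, against 9.67 and 9.98 in the WT proximal stomachs, a difference of -3.82 (SE 0.35, adjusted p = 1.9e-08). The KO level was that of the glandular tissues, where the 6 Gata3 group means of both genotypes lay between 5.80 and 6.62. Gata4, which marks columnar stomach, had 6.39 and 6.69 in KO, against 6.75 and 7.20 in WT. The KO arrays lay just under the WT arrays, but the difference of -0.44 (95% interval -0.97 to 0.09, adjusted p = 0.2) did not pass. Gata6, an endodermal and mesenchymal GATA factor, had 8.10 and 7.36 in KO, against 7.92 and 7.91 in WT, a difference of -0.19 (adjusted p = 0.469) with overlapping arrays, but without KO replicate 1 it was -0.56 (adjusted p = 0.0234). A second Gata6 probe set, 1425463_at, was lower in KO (6.85 against 7.48 in WT, difference -0.63, adjusted p = 0.031), and another, 1443081_at, had 6.58 in KO and 6.18 in WT (adjusted p = 0.381).

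**Figure D3:**
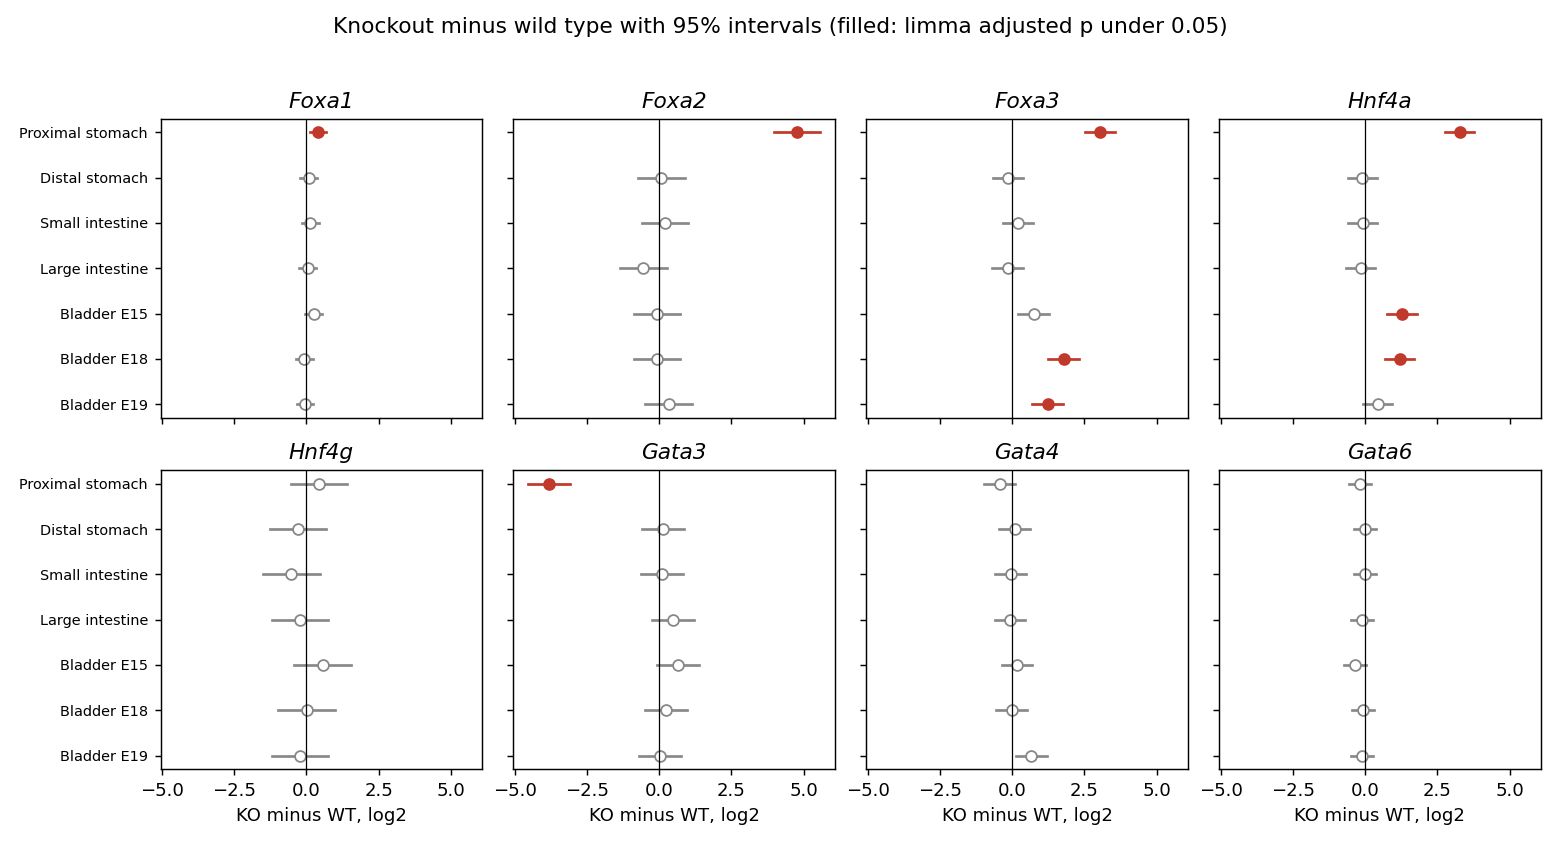
KO minus WT differences in log2 units with 95% intervals for each gene, tissue and stage, with filled red points where limma's adjusted p was under 0.05. The filled points fall on proximal stomach and bladder only, and Gata3 in proximal stomach is the single one below 0.

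The next comparison set KO proximal stomach beside WT distal stomach, the neighbouring columnar tissue of the same organ. In WT the 2 regions differed for all 8 members, with Gata3 3.80 higher in proximal stomach and the other 7 lower by differences of -1.57 (Foxa1) to -6.78 (Hnf4a), where 40.4% of all genes were called. Against WT distal stomach, 6 members remained lower in KO proximal stomach and none was higher, in a comparison that called 32.9% of all genes and 16.7% of all genes lower. Gata4 was lower by the most, with a difference of -5.64 (adjusted p = 4.1e-13) and means of 6.54 in KO proximal and 12.18 in WT distal stomach. Gata6 differed by -3.68 (adjusted p = 2.1e-12), Hnf4a by -3.51, Foxa3 by -2.78, Hnf4g by -1.71 (adjusted p = 0.0074) and Foxa1 by -1.17. The 2 members that did not pass were Foxa2, at 10.69 in KO proximal and 9.99 in WT distal stomach (difference 0.70, 95% interval -0.10 to 1.505, adjusted p = 0.174), and Gata3, at 6.004 and 6.03 in the same order (difference -0.02, 95% interval -0.75 to 0.70, adjusted p = 0.971). Hnf4g lost its call without KO proximal stomach replicate 1 (-0.86, adjusted p = 0.209) or WT distal stomach replicate 1 (-1.28, adjusted p = 0.11), and Foxa2 passed when only the arrays of these groups were fitted (adjusted p = 0.0228).

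Expressed as a share of the gap between the WT regions, the KO minus WT difference in proximal stomach covered 117% for Foxa2 and 101% for Gata3. It covered 52.3% for Foxa3 and 48.2% for Hnf4a, then 25.5% for Foxa1 and 20.6% for Hnf4g. The Hnf4a share depends on the probe set: it was 18.8% by 1427000_at, 9.11% by 1450447_at and -1.90% by 1421983_s_at. For Gata4 and Gata6 it ran away from the distal level, by -8.43% and -5.43%. These shares are on the log2 scale, describe group means of 2 arrays, and for Hnf4g, Gata4 and Gata6 rest on differences that did not pass the test. For Gata3 the KO proximal and the WT distal arrays all lay below their own array's median, so its share compares low signals.

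**Figure D4:**
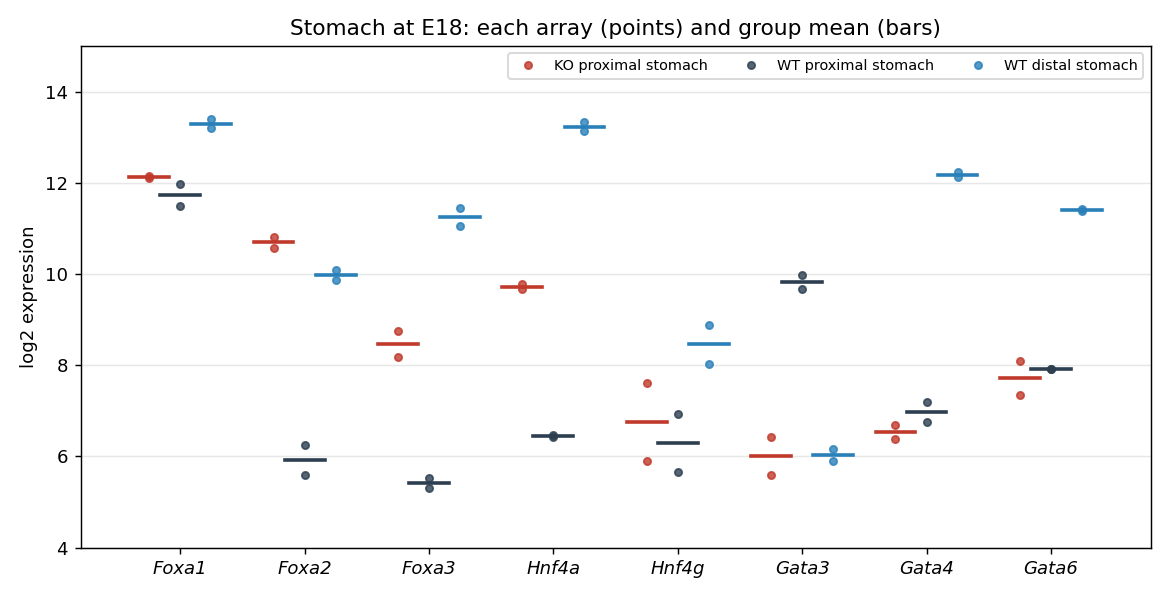
Log2 expression of the 8 genes in KO proximal (red), WT proximal (dark) and WT distal stomach (blue) at E18, with points for arrays and bars for group means. KO proximal stomach sits at the distal level for Foxa2 and Gata3, between the WT regions for Foxa3 and Hnf4a, and at the WT proximal level for Gata4 and Gata6.

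In distal stomach, small intestine and large intestine no member passed in any of the 24 comparisons of KO with WT. The KO minus WT differences ran from -0.55 (Foxa2, large intestine) to 0.47 (Gata3, large intestine), the smallest limma adjusted p was 0.937, and none had an unadjusted p under 0.05. Few genes of any kind were called in these tissues: 0% of those tested in distal stomach and small intestine, where 528 and 626 genes had an unadjusted p under 0.05, and 0.0882% in large intestine. The 95% intervals reached from -1.49 to 1.19, so changes of about 1 log2 unit in the noisier genes were not detectable with 2 arrays a group. Foxa2 in large intestine shows that noise, with 8.17 and 9.76 in KO against 9.01 and 10.03 in WT. Hnf4a was steadier, with 13.69 and 13.76 in KO against 13.74 and 13.88 in WT small intestine.

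The effect in proximal stomach differed from that in distal stomach for the same 4 genes by the interaction term, which called 19.2% of all genes. The difference of the KO effects, proximal minus distal, was 4.69 for Foxa2 (adjusted p = 1.4e-06), 3.37 for Hnf4a (2.4e-07), 3.19 for Foxa3 (9.6e-07) and -3.94 for Gata3 (3.7e-06). For Hnf4a it was also called by 1427000_at (1.20, adjusted p = 0.00433), and not by 1421983_s_at (0.41) or 1450447_at (0.28). For the other 4 members it lay between -0.52 (Gata4) and 0.73 (Hnf4g) and did not pass, although Foxa1 (0.32) passed without WT proximal stomach replicate 2 (0.56, adjusted p = 0.0467).

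In bladder the members that passed in KO were Foxa3 and Hnf4a, both higher, by smaller amounts than in proximal stomach and from low levels. Averaged over the 3 stages, Foxa3 was higher by 1.25 (SE 0.15, adjusted p = 6.1e-06) and Hnf4a by 0.97 (SE 0.14, adjusted p = 7.0e-05), 2 of 8 members where 21% of all genes were called and 14% were higher. Stage by stage, 1 member passed at E15, where 7.04% of all genes were called and 4.55% were higher. At E18 2 members passed (3.24% of all genes called, 1.56% higher) and at E19 1 member (20% called, 13.5% higher).

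Foxa3 had 5.87 and 5.71 in KO against 4.99 and 5.11 in WT bladder at E15, a difference of 0.74 that did not pass (adjusted p = 0.0815). At E18 it had 6.81 and 6.81 in KO against 5.03 and 5.03 in WT, a difference of 1.78 (SE 0.25, adjusted p = 2.3e-04). At E19 it had 7.12 and 6.89 in KO against 5.85 and 5.71 in WT, a difference of 1.23 (adjusted p = 0.00198). KO arrays lay above WT arrays at each of the 3 stages. The genotypes did not overlap, in either direction, for 55.3% of all genes at E15, 49.3% at E18 and 64.6% at E19. All 12 bladder arrays were nevertheless below their own array's median for Foxa3.

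Hnf4a had 7.61 and 7.63 in KO against 6.20 and 6.48 in WT bladder at E15, a difference of 1.28 (SE 0.24, adjusted p = 0.0033). At E18 it had 8.05 and 7.62 in KO against 6.99 and 6.28 in WT, a difference of 1.20 (adjusted p = 0.0069). Neither pair overlapped. At E19 the arrays did overlap, at 8.44 and 7.56 in KO against 7.86 and 7.27 in WT, with a difference of 0.43 (adjusted p = 0.227), or 0.87 (adjusted p = 0.0361) without KO replicate 2. At these single stages only probe set 1427001_s_at was called: 1421983_s_at, 1427000_at and 1450447_at gave -0.40, 0.58 and -0.15 at E15 and 0.41, 0.30 and -0.020 at E18, none of which passed. Averaged over the stages, 1427000_at was also higher in KO, by 0.42 (adjusted p = 0.0135), whereas 1421983_s_at (0.13) and 1450447_at (-0.11) did not pass. The calls at E15 and E18 also depend on single arrays, since without WT bladder replicate 1 at E15 the adjusted p was 0.0822, and at E18 it was 0.105 without KO replicate 1 and 0.19 without WT replicate 2. At E15 the KO arrays had an actin 3′ to 5′ difference of 1.12 and 1.33, against 0.689 and 0.784 in WT, and with that covariate the Hnf4a difference was 1.39 (adjusted p = 0.562). The covariate left 3 of all 13613 genes called at E15, against 959 without it.

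The remaining 6 members gave 18 comparisons in bladder, with differences of -0.33 to 0.66 and a smallest adjusted p of 0.0704. That value belonged to Gata4 at E19, with 7.16 and 7.18 in KO against 6.28 and 6.74 in WT. Foxa2, which had the largest difference in proximal stomach, had 5.62 to 6.65 over the 6 KO bladder arrays and 5.65 to 6.46 over the 6 WT arrays, all below the array median. Gata3, lower in KO proximal stomach, had 11.18 and 10.78 in KO against 10.38 and 10.29 in WT bladder at E15, and 11.88 and 11.74 in KO against 11.54 and 11.62 in WT at E18. At these 2 stages the KO arrays lay above the WT arrays, by 0.64 (adjusted p = 0.286) and 0.23 (adjusted p = 0.834), and at E19 the arrays overlapped. Of all genes, 55.3% at E15 and 49.3% at E18 had no overlap between genotypes. A second Gata6 probe set, 1425463_at, was lower in KO bladder at E15 (9.09 against 9.80 in WT, adjusted p = 0.0474), where the brightest one gave -0.33 (adjusted p = 0.294) and 1443081_at gave -0.81 (adjusted p = 0.126). Averaged over the stages, 1443081_at was lower in KO by -0.56 (adjusted p = 0.0398) and the mean of the 3 probe sets by -0.34 (adjusted p = 0.0295), against -0.18 for the brightest one (not called).

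**Figure D5:**
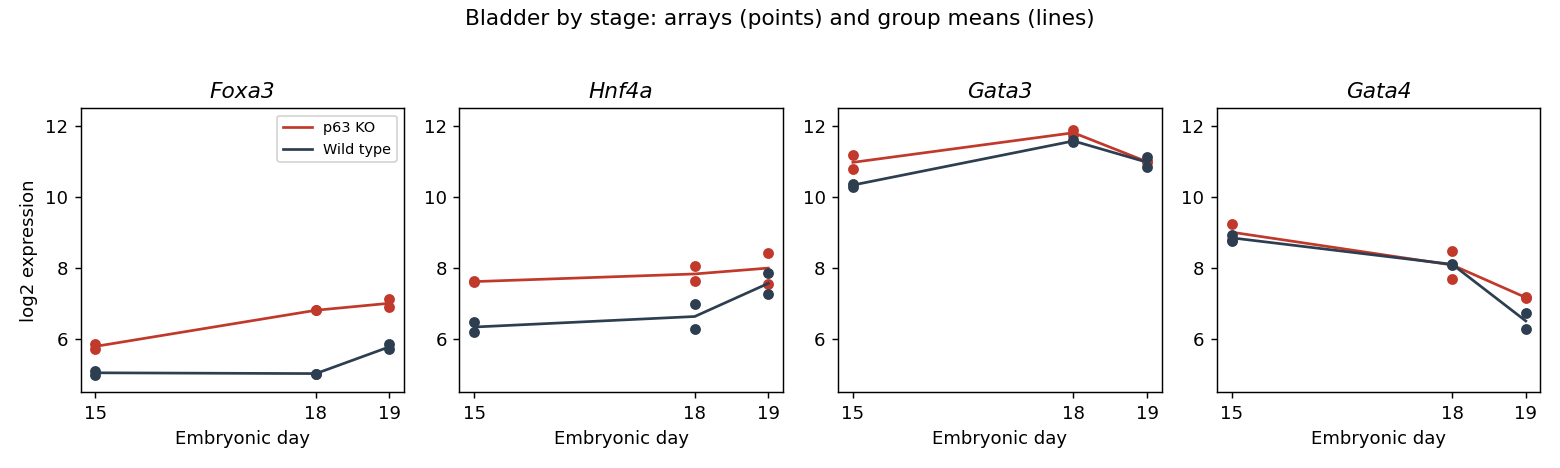
Bladder levels of Foxa3, Hnf4a, Gata3 and Gata4 in log2 expression by embryonic day, with points for arrays and lines through the group means of p63 KO (red) and WT (dark). KO lies above WT at every stage for Foxa3, and Gata4 goes down with stage in both genotypes.

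The effect of the knockout at E18 differed between proximal stomach and bladder for Foxa2 (4.85, adjusted p = 9.5e-07), Hnf4a (2.07, adjusted p = 1.4e-04), Foxa3 (1.26, adjusted p = 0.0144) and Gata3 (-4.05, adjusted p = 2.8e-06), 4 of 8 members where 22.8% of all genes were called. Foxa3 lost its call when KO proximal stomach replicate 1 (0.98, adjusted p = 0.0851) or WT proximal stomach replicate 1 (1.15, adjusted p = 0.0588) was left out, and also with the actin covariate (0.99, adjusted p = 0.163). Hnf4a lost it when its 4 probe sets were averaged (0.60), and no other Hnf4a probe set passed, the nearest being 1427000_at (0.71, adjusted p = 0.0841). Foxa1, at 0.46 (adjusted p = 0.0979), passed without WT proximal stomach replicate 2 (0.70, adjusted p = 0.01). Between E19 and E15 in bladder no member's KO effect differed by limma's interaction term, against 8.59% of all genes. There 1 member had an unadjusted p under 0.05, namely Hnf4a, at -0.85 (adjusted p = 0.136), and without KO bladder replicate 1 of E19 it was -1.29 (adjusted p = 0.0322).

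Several members differed between E19 and E15 in bladder in both genotypes, as most genes did. Gata4 was lower at E19 than at E15, by -1.84 in KO (adjusted p = 1.9e-06) and by -2.34 in WT (adjusted p = 5.5e-08), with means of 7.17 at E19 and 9.01 at E15 in KO and of 6.51 at E19 and 8.85 at E15 in WT. The dimmer Gata4 probe set, 1418864_at, did not pass in either genotype, at -0.0031 in KO (adjusted p = 0.992) and -0.48 in WT (adjusted p = 0.115). Foxa3 and Gata6 were higher at E19 in both, Foxa3 by 1.22 in KO and 0.73 in WT, and Gata6 by 0.79 in KO and 0.57 in WT. Foxa2 was also higher in KO (0.97, adjusted p = 0.0313), a call lost without any 1 of the 4 arrays concerned (adjusted p of 0.0786 to 0.106). In WT, Hnf4a (1.23, adjusted p = 1.4e-04) and Foxa1 (0.57) were higher as well. In KO the Hnf4a difference of 0.38 did not pass, while the other 3 probe sets did, at 0.49 to 1.48. These are 3 higher and 1 lower of 8 in KO and 4 higher and 1 lower in WT, where 68.7% and 72% of all genes were called in the same order. The members were called no more often than other genes, and nothing about them as a set is read from these counts. The 4 E19 arrays had lower medians (7.48 to 7.53) than the other 24 arrays (7.73 to 7.86), and the median of all genes was -0.16 between E19 and E15 in each genotype. With every array centred on its median, the Gata4 differences were -1.52 in KO and -2.04 in WT. With E18 in place of E19, a setting chosen after seeing the data, Gata4 was still lower (-0.93 in KO, -0.75 in WT), Foxa3 was higher in KO (1.02) and not in WT (-0.02), and Gata6 passed in neither. The Gata6 direction turned with the probe set: 1443081_at was lower at E19, by -1.67 in KO and -1.86 in WT, 1425463_at gave 0.61 in KO and 0.01 in WT, and the mean of the 3 was -0.09 in KO (not called) and -0.43 in WT (adjusted p = 0.0459). With the actin covariate Foxa2, Foxa3 and Gata6 did not pass in KO (adjusted p of 0.259 to 0.636). That setting called 5617 of all 13613 genes in KO, against 9354 without the covariate. Foxa3 in WT lost its call without replicate 1 at E15 (adjusted p = 0.0717) or E19 (adjusted p = 0.0733), as did Gata6 in WT without replicate 2 at E19 (adjusted p = 0.0897).

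Over the 14 groups the members fell into different orders. Foxa1 was the most even, from 13.38 in KO and 13.30 in WT distal stomach to 11.04 in KO and 10.91 in WT small intestine, with bladder and the other tissues between. Foxa2 had its highest mean in KO proximal stomach (10.69 ± 0.17, SD, n = 2), above KO (10.06 ± 0.30) and WT distal stomach (9.99 ± 0.15), which overlapped each other. Next came large intestine, at 8.97 ± 1.12 in KO and 9.52 ± 0.72 in WT, then small intestine and bladder, whose means lay between 5.64 and 6.89. Foxa3 was highest in distal stomach (11.10 in KO, 11.24 in WT), followed by large and small intestine, and KO proximal stomach came next at 8.46 ± 0.40, apart from its neighbours on both sides.

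Hnf4a had its top levels in small intestine (13.73 in KO, 13.81 in WT), then large intestine and distal stomach, down to 13.14 in KO distal stomach, and then a gap of 3.42 to KO proximal stomach. Hnf4g was concentrated in small intestine, at 11.56 in KO and 12.08 in WT. Gata3 was highest in bladder, at 10.34 to 11.81 over its 6 group means, followed by WT proximal stomach at 9.82. Gata4 stood at 12.26 in KO and 12.18 in WT distal stomach and 11.76 in KO and 11.81 in WT small intestine, but at 6.36 in KO and 6.44 in WT large intestine. Gata6 was high in bladder, small intestine and distal stomach, with group means of 11.11 to 12.02, lower in large intestine (9.86 in KO, 9.98 in WT) and lowest in proximal stomach (7.73 in KO, 7.92 in WT).

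Between members, the 14 group means of Foxa3 and Hnf4a ran closest together (Pearson r = 0.964), and Gata3 ran against both (r = -0.892 with Foxa3, -0.904 with Hnf4a). Foxa2 followed Foxa3 at r = 0.804. Over all genes tested, the means most like those of Foxa2 were those of Cd177 (r = 0.986), whose mean was 11.50 in KO and 5.08 in WT proximal stomach and 10.28 in WT distal stomach, of 9030622O22Rik (0.959) and of Ceacam10 (0.947). Those most like Foxa3 were Capn9 (0.984), D630039A03Rik (0.98) and Arfgef3 (0.972), and those most like Hnf4a were Gmds (0.986), the brush border myosin Myo1a (0.986) and Lypd8 (0.983). Gata3 was most like Msx2 (0.98), a homeobox gene, Serping1 (0.97) and Gm13398 (0.967). Hnf4g was most like Fabp2 (0.994), the intestinal fatty acid binding protein, Recql5 (0.973) and Rbks (0.971). The closest to Foxa1 were D630004K10Rik (0.964), Lrpap1 (0.958) and Itih2 (0.943), to Gata4 Pdia2 (0.949), 6330407A03Rik (0.918) and Tmem150a (0.906), and to Gata6 Cntnap2 (0.94), Gstm4 (0.927) and Ttr (0.92). These correlations are descriptions over 14 points, each the mean of 2 arrays, and KO and WT of a tissue enter as separate points. Those pairs lie close together in distal stomach and intestine but not in proximal stomach or late bladder, so the likeness to Foxa2 includes its gap between KO and WT proximal stomach.

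Other genes of the same pathways were read from lists of partner factors and of genes known for glandular functions. Of 19 measured partner transcription factors of gut epithelium, 5 were higher and 2 lower in KO proximal stomach, 36.8% called where 32.7% of all genes were, with a median difference of 0.18 against 0.02 over all genes. The homeobox gene Prox1 was 4.08 higher (adjusted p = 2.3e-10), the secretory-pathway regulator Creb3l1 2.21 and the ETS factor Elf3 1.88, while Isx was lower at -1.30. The intestinal factors Cdx1 and Cdx2 did not pass, at -0.17 and -0.14. Of 7 measured other GATA factors and cofactors, Trps1 was 1.03 higher and the others did not pass (list median -0.13).

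Among 17 measured enterocyte and lipid transport genes with reported HNF4 regulation, 4 were higher and 1 lower in KO proximal stomach (median 0.26). That is 29.4% called, near the 32.7% of all genes, and nothing about the list as a whole is read from it. Vil1, a microvillus actin bundler, was 4.89 higher (adjusted p = 1.9e-13), Myo1a 2.08 and Mttp, which loads lipid onto lipoproteins, 1.40, while the glucose transporter Slc5a1 was lower at -0.91. The apolipoprotein genes Apoa1 (-0.29), Apob (-0.01) and Apoc3 (-0.23) did not pass. Of 15 mucous and secretory genes 11 were higher and none lower (median 1.66), 73.3% higher where 18.1% of all genes were: Spink4 by 7.55, the secretory disulfide isomerase Agr2 by 7.01, the membrane mucin Muc4 by 6.52 and the gastric trefoil peptide Tff2 by 5.32. Muc2, the intestinal goblet mucin, had 5.49 in KO and 5.59 in WT (adjusted p = 0.878). Of 10 gastric glandular genes 3 were higher, Ctse by 2.69, Gkn1 by 2.06 and Pgc by 0.74, with the KO arrays for Gkn1 overlapping those of WT. All 10 were lower in KO proximal stomach than in WT distal stomach, by a median of -6.60, where 16.7% of all genes were lower. The same 10 were also lower in WT proximal than in WT distal stomach, by a median of -7.12. Of 10 urothelial genes 7 were higher and 1 lower (median 2.90), among them Krt20 (5.92), Upk1a (5.42) and Upk2 (5.31), while Pparg was lower at -1.80.

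In bladder the same lists moved less in number. Of the 17 HNF4-linked genes 2 were higher at E15 and at E18 and 3 at E19, and none was lower. Those are 11.8%, 11.8% and 17.6% of the list, where 4.55%, 1.56% and 13.5% of all genes were higher in the same order, so the count at E19 is near that of all genes. Fabp1, the liver-type fatty acid binding protein, was higher by 3.06 at E15, 3.04 at E18 and 2.54 at E19, and Vil1 by 1.35, 1.37 and 1.74 at the same stages. Of the 15 mucous genes none passed at E15, 5 were higher at E18 and 9 at E19 (33.3% and 60% of the list). At E18 the trefoil peptide Tff3 had means of 11.76 in KO and 7.28 in WT (difference 4.49, adjusted p = 6.3e-12). Among the partner factors, Spdef, a regulator of goblet cells, was 2.08 higher at E18 and Sox2 was lower at -2.04. Urothelial genes, high in both genotypes, had 4 of 10 higher at E15, none called at E18 and 1 higher at E19. None of the 17 HNF4-linked, 15 mucous or 10 gastric genes passed in distal stomach or small intestine, where no gene at all was called.

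Markers of epithelial type moved with these results in proximal stomach. All 8 markers of simple epithelium were higher in KO, with list means per array of 13.58 to 13.64 in KO against 11.20 to 11.65 in WT, and 5 of 7 markers of stratified basal epithelium were lower, at 9.26 to 9.28 in KO against 12.33 to 12.60 in WT. Krt5 differed by -5.80 and Krt14 by -5.54, while Krt15 (0.63) and Dst (-0.21) did not pass. Liver markers, of which 4 of 6 were measured, had list means of 5.97 to 6.01 in KO against 6.09 to 6.501 in WT, and pancreas markers, 4 of 7 measured, 5.84 to 6.32 in KO against 5.92 to 5.94 in WT; none of either list was called. All 3 measured cardiac markers and 1 of 6 smooth muscle markers were lower in KO, where 14.6% of all genes were lower. Of the cardiac markers, Myl4 and Tnnt2 had their highest means in bladder. Of 5 mesothelial markers 2 were higher, but the list median was -0.44, and Wt1, Lrrn4 and Tbx18 had lower means in KO. Among endothelial markers 1 of 5 and among measured neuronal markers 1 of 5 were higher, where 18.1% of all genes were higher. Of the 6 markers of T and innate lymphoid cells, in which Gata3 is best known, only Ptprc was among the genes tested. It did not pass, and 1 gene does not show whether such cells changed. In KO bladder, 5 of 7 basal markers were lower at E18 and at E19, and 2 of 7 at E15 with 1 higher. At E15, where Hnf4a was called, 5 of 8 markers of simple epithelium were higher, with list means of 12.32 to 12.36 in KO against 11.75 to 11.89 in WT, and so were 2 of 5 mesothelial and 2 of 5 neuronal markers. At E19, where Foxa3 was called, 2 of 5 mesothelial markers and Ptprc (1.44) were higher, and no marker of simple epithelium was called at E18 or E19. At E18 1 neuronal marker was higher, and the neuronal list mean was 7.37 to 8.86 in KO against 6.89 to 7.60 in WT. Of all genes, 4.55% were higher in KO bladder at E15, 1.56% at E18 and 13.5% at E19. The part of these shifts in the members' differences was not tested.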

How the data were processed

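Total RNA extracted with Trizol was labelled with an Affymetrix in vitro transcription kit, per the labels' protocols. The authors deposited 1 log2 expression value per probe set and array, made with Affymetrix Expression Console and Partek per the submitters' processing notes; background correction, summarisation, normalization and versions were not stated in the sources used here. Array data have no read depth, so the number of arrays limits the precision. Of 45101 probe sets 64 controls were dropped, and 28866 above their array's median on at least 2 of 28 arrays were kept. Genes were named from GEO's platform annotation (34945 probe sets with 1 symbol, 932 with several, 9160 with none); the probe set with the highest mean stood for each of 13613 genes.

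Group means were fitted to all 28 arrays with limma 3.58.1 in R 4.3.3 (lmFit, contrasts, eBayes with trend; 14 residual and 6.19 prior degrees of freedom), and p-values were adjusted over all genes by the Benjamini-Hochberg method. An exact permutation test of 2 against 2 arrays cannot go below p = 0.333 and was not used. Alternatives changed the filter, probe set rule, scaling, arrays fitted, array weights, replicate block and actin covariate, and left out each array in turn. The replicate numbers were not taken as pairs: the labels do not say that they mark shared animals, and same-numbered arrays deviated together by r = -0.127 (small intestine) to 0.275 (large intestine). The fit was tested on simulated data.

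The members, the gene and marker lists and the promoter motifs were chosen with earlier results of these data known. Of each list the text names up to 4 called genes with the largest change, and for likeness the 3 genes with the highest correlation; list genes given because they did not pass were added after their values were seen. Promoter windows are from RefSeq (GRCm38.p6).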

Additional observations from a re-analysis of the deposited data

Results flagged for a closer look

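The KO minus WT difference itself differed between tissues for 4 genes, by limma's interaction term with adjustment over all genes. That term called 22.8% of all genes between proximal stomach and bladder at E18 and 19.2% between proximal and distal stomach. Between proximal stomach and bladder at E18 the difference of effects was 4.85 log2 units for Foxa2 (adjusted p = 9.47e-07), 2.07 for Hnf4a (adjusted p = 0.000138), 1.26 for Foxa3 (adjusted p = 0.0144) and -4.05 for Gata3 (adjusted p = 2.77e-06). Between proximal and distal stomach it was 4.69 for Foxa2 (adjusted p = 1.38e-06), 3.37 for Hnf4a (adjusted p = 2.42e-07), 3.19 for Foxa3 (adjusted p = 9.62e-07) and -3.94 for Gata3 (adjusted p = 3.73e-06). All 8 differences share the proximal stomach arrays and are not independent of each other. Between proximal stomach and bladder, the Foxa3 difference ran from 0.98 to 1.54 with 1 array left out. Its call depended on single arrays, as given above, and was also lost with the actin covariate. The Hnf4a call there was lost when its probe sets were averaged, and no other Hnf4a probe set passed. Groups of 2 arrays are too small to test for an outlying array.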

How the results depend on the processing

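In proximal stomach 4 calls held under all 13 alternatives that kept 1 fit per gene: Foxa2 at 4.44 to 5.09, Foxa3 at 2.74 to 3.33, Gata3 at -4.24 to -3.40 and Hnf4a at 1.07 to 3.32. By its separate probe sets Hnf4a changed sign in proximal stomach (1421983_s_at, -0.063), in bladder at E15 (1421983_s_at, -0.40, and 1450447_at, -0.15), at E18 (1450447_at, -0.020) and over the stages (1450447_at, -0.11), and in the difference between proximal stomach and bladder (1421983_s_at, -0.47); the cause was not tested. The count of members called in bladder was 0 at E15 with the mean of probe sets or the actin covariate, 1 at E18 with the mean of probe sets or only the compared arrays, and 2 at E19 (Gata4 added) with quantile normalization or array weights. Leaving out 1 array gave 0 to 1 at E15, 1 to 2 at E18, 1 to 2 at E19 and 0 to 1 for the difference between E19 and E15. Between E19 and E15, KO had 1 member called with the actin covariate and 2 with E18 in place of E19, and WT had 3 with E18. The E18 settings were chosen after seeing the data. Of all 13613 genes, these settings called 5617 and 6361 in KO and 6130 in WT, against 9354 and 9800 in the main fit. In bladder at E15 the mean of probe sets called 872 genes and the actin covariate 3, against 959. At E18 the mean of probe sets called 370 genes and only the compared arrays 291, against 441. At E19 quantile normalization called 2445 genes and array weights 3159, against 2721. With the replicate block 5 members were called in proximal stomach, 1, 2 and 1 in bladder at E15, E18 and E19, and no call changed; crossing the numbers in small intestine, added after seeing the data, called 0 members and 0 genes. In distal stomach 252 genes and no member were called without WT replicate 2. Members that did not pass could still differ by the widths of their intervals, which groups of 2 arrays leave wide.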
